A study of Mus musculus with 2 samples.

Results

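Cytochrome P450 genes were followed on a pair of Affymetrix microarrays of cortical thymic epithelial cells (cTECs), 1 array per genotype. All genes were taken whose platform symbol reads Cyp, number, letter, number, with Cyp51 added and pseudogenes ending in -ps left out, among probe sets annotated to a single gene. This gave 82 genes of the 19938 measured. The Tg array held RNA of Aire transgenic NOD mice, in which a semi-knockin places Aire under the promoter of β5t, the thymoproteasome subunit restricted to the cortex. The non-Tg array held RNA of control mice of the same background, with no further allele or agent named, and both samples are labelled day 7. The source labels name 7 Tg and 5 non-Tg, read here as animals pooled for each array. Since each genotype has a single array, differences could not be set against a spread between replicates, none was tested and no p-value is given. The rule for P450 genes reads symbols and uses no values, but it was set with earlier results of these data known.

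P450 enzymes are haem proteins that insert oxygen into lipids, hormones and foreign compounds, with electrons passed on by a reductase, cytochrome b5 or, in mitochondria, adrenodoxin. A few members serve pathways that most cells run, such as sterol synthesis, while many others are abundant in 1 organ, above all the liver, the adrenal gland or the gonads. P450 genes of the organ-restricted kind are among the self antigens that medullary thymic epithelial cells transcribe with the help of Aire, and several P450 enzymes are targets of autoantibodies in people who lack AIRE.

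Values are log2 levels as deposited, so that a difference of 1 is 2-fold, and every difference is Tg minus non-Tg. Levels under 4.80, the 25th percentile of all values, were raised to that floor before subtraction. A gene passed the filter where it reached the array's median in at least 1 genotype, 5.43 on the Tg and 5.45 on the non-Tg array. The nearest measure of error was the disagreement between the Tg minus non-Tg differences of 2 probe sets of 1 gene, both past the filter. It gave an SD of 0.303 per probe set over 658 genes, called here the SD of 1 probe set. This is an error of differences and not of levels, and it holds no variation between animals or amplifications. Over the 11422 genes past the filter, the middle 95% of differences lay between -0.62 and 0.72. Each of the 82 P450 genes had 1 probe set, so none has a second reading. Levels of different genes also depend on their probes and set no order of transcript abundance.

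The cTEC label was checked against marker genes. All 12 cTEC markers listed passed the filter, and all 12 read higher in Tg, by a median of 0.13 and at most 0.57. Psmb11, which encodes β5t, read 10.5 in Tg against 10.1 in non-Tg. Aire stood at 7.33 in Tg against 6.06 in non-Tg, 2.43-fold higher, and was the only marker beyond 2-fold in either direction. It is 1 of 9 medullary TEC markers measured, of which 6 passed the filter. Krt5 (keratin 5) read 10.7 in Tg against 10.4 in non-Tg, and Trp63, an epithelial transcription factor, 9.13 and 9.25. Of the 9, 3 stood higher and 6 lower in Tg, with a median of -0.08, and the widest of the lower ones was Tnfrsf11a, the RANK receptor, at -0.39. RNA of thymocytes was found in both samples, with 8 of 9 markers past the filter and mean levels of 8.12 in Tg against 8.23 in non-Tg. Endothelial markers passed in 6 of 6 cases, fibroblast markers in 5 of 8 and macrophage and dendritic cell markers in 3 of 10. Of all genes 57.3% passed, so the fibroblast share (62.5%) lies near it and the macrophage and dendritic cell share (30%) under it. Hepatocyte markers passed in 0 of 5 cases, Alb (albumin) being at 4.87 in Tg against 4.75 in non-Tg. In bulk RNA of this kind, fewer cells of a type and less RNA per cell cannot be told apart.

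Most P450 genes were dim on both arrays. Of the 82, 17 passed the filter (20.7%), whereas 57.3% of all genes did. Of the 17, 9 reached the median on both arrays, 6 on the Tg array alone and 2 on the non-Tg array alone. A further 39 of the 82 lay under the floor on both arrays, against 17.3% of all genes. The highest P450 level was 7.33, that of Cyp1b1 in non-Tg.

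None of the 17 was 2-fold apart in either direction, where 1.17% of all genes past the filter were, 0.797% higher and 0.376% lower. At that share, fewer than 1 such gene would be counted among 17, so the 0 says little about the family. A lower limit of 1.5-fold was added after the values had been seen. By it, 3 of the 17 were higher in Tg, namely Cyp20a1, Cyp39a1 and Cyp2g1, where 4.74% of all genes past the filter were, and 0 were lower, where 3.13% were. Cyp20a1 and Cyp2g1 passed the filter through the Tg array alone, so that a difference in that direction comes partly with their selection. The same holds for Cyp4f13, Cyp11b2, Cyp2j6 and Cyp2c66, and in the other direction for Cyp2w1 and Cyp2s1. Over all 82 genes the median difference was 0, with 20 values above 0, 22 below and 40 at 0 after the floor, and the median over all 19938 genes was also 0.

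**Figure D1:**
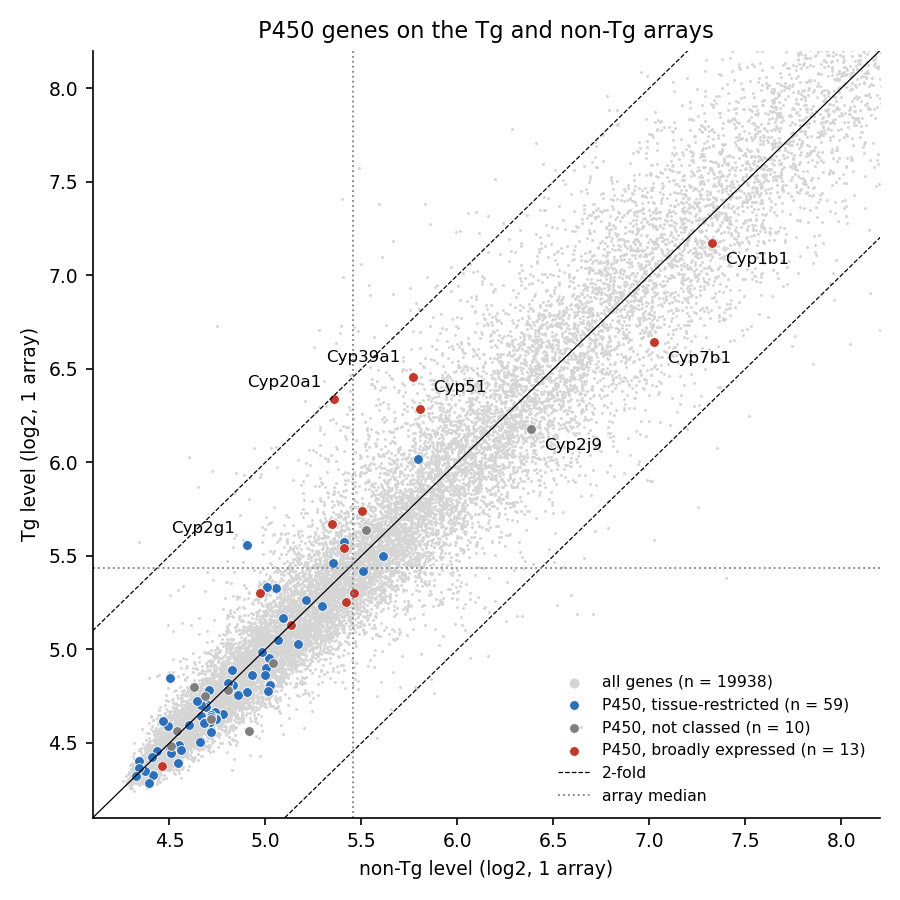
Level of each gene on the non-Tg array (x axis) against the Tg array (y axis), both in log2 units and cropped to levels up to 8.2, with all genes in grey and P450 genes coloured by class. Most of the 59 tissue-restricted genes crowd the lower left corner under the array medians (dotted), and Cyp20a1 lies just inside the 2-fold line (dashed).

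The rule asked how broadly expressed members compare with tissue-restricted ones. The classes came from textbook knowledge of adult tissues: 13 measured genes were taken as broadly expressed, 59 as tissue-restricted, and 10 were left unclassed. They were drawn up with earlier results of these data known, so contrasts between the classes are not independent of the levels. Of the broadly expressed genes 9 of 13 passed the filter (69.2%), and of the tissue-restricted genes 6 of 59 (10.2%). The share of all genes, 57.3%, lies between these values. Of the unclassed genes 2 of 10 passed. Median levels were 5.67 in Tg against 5.42 in non-Tg for the broadly expressed class, and 4.71 and 4.72 for the tissue-restricted class.

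The median of the Tg minus non-Tg difference was taken for each class, but the floor limits the comparison. Over all 13 broadly expressed genes the median difference was 0.13, with 7 above 0 and 4 below and a range from -0.38 for Cyp7b1 to 0.98 for Cyp20a1. With the floor at the 50th percentile this median was 0. Over all 59 tissue-restricted genes the median was 0, with 12 above 0 and 14 below and a range from -0.21 to 0.65. The other 33 lay under the floor on both arrays and were thereby set to 0, so this median is fixed by the floor. Without the floor, 33 of all 82 P450 genes lay above 0, 46 below and 3 had the same value on both arrays. Over all 19938 genes, 9131 lay above 0, 10303 below and 504 had the same value, with a median of -0.01. The median of the tissue-restricted class without the floor was -0.03. Differences between transcripts near background could not be detected on these arrays. The median of 0.13 in the broadly expressed class equals that of the cTEC markers, whose part in it was not tested.

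Liver, kidney and gut genes made up 43 of the tissue-restricted class, and 31 of them lay under the floor on both arrays. Cyp2e1, which metabolises ethanol, had 4.66 in Tg against 4.74 in non-Tg. Cyp3a11, a main drug-metabolising enzyme of mouse liver, had 4.35 and 4.37. Cyp7a1, the rate-limiting enzyme of bile acid synthesis, had 4.49 and 4.55, and Cyp1a2, an autoantibody target in AIRE deficiency, 4.65 and 4.72. All these levels are under the floor in both genotypes, so no fold is given for them.

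Promoter composition also differed between the classes, as a description without a test. RefSeq start sites of the GRCm38.p6 build, as windows of 250 bases before and 50 after the start, were at hand for 63 of the 82 genes, and the first listed start was used for the 6 genes with several. A window was called CpG-rich with an observed over expected CpG ratio of at least 0.6 and a GC content of at least 50%. By this rule 4 of 9 broadly expressed genes were CpG-rich (Cyp51, Cyp20a1, Cyp1b1 and Cyp2r1), 2 of 44 tissue-restricted genes (Cyp46a1 and Cyp26a1) and 0 of 10 unclassed ones. The median number of CpG dinucleotides per window was 16 in broadly expressed and 2 in tissue-restricted genes, and 7 over 27025 windows of all genes, of which 34.1% were CpG-rich. The letters TATAAA on the gene's strand between positions -50 and -11 occurred in 10 of 44 tissue-restricted windows and in 0 of 9 broadly expressed ones, and in 2.64% of all windows. Among the 57 P450 genes without a CpG-rich window 9 passed the filter (15.8%), where 36.5% of all genes of that kind did. Among the 6 with such a window 3 passed, where 80.9% of all genes of that kind did.

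The 250 bases before the start are shown for the pair of CpG-rich genes past the filter that stood higher in Tg and for a pair of liver genes under the floor, 5′ to 3′ on the gene's strand with each CpG dinucleotide in capitals. The windows lie at chr5:4104698-4104947 (minus strand) for Cyp51, chr1:60343050-60343299 (plus strand) for Cyp20a1, chr7:140763569-140763818 (plus strand) for Cyp2e1 and chr5:145879855-145880104 (minus strand) for Cyp3a11.
Cyp51: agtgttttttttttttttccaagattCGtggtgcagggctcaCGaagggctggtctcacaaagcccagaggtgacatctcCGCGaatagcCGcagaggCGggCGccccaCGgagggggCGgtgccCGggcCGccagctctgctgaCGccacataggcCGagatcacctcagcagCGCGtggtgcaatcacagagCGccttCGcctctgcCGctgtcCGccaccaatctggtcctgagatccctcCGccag
Cyp20a1: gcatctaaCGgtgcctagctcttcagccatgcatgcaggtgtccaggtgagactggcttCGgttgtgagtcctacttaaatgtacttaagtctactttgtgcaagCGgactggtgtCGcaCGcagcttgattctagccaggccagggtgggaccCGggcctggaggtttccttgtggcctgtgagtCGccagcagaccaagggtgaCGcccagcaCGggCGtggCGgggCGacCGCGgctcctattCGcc
Cyp2e1: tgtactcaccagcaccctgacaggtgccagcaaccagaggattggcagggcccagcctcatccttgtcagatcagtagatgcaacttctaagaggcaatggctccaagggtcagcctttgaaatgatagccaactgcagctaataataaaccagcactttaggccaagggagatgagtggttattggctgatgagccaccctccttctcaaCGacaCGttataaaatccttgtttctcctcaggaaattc
Cyp3a11: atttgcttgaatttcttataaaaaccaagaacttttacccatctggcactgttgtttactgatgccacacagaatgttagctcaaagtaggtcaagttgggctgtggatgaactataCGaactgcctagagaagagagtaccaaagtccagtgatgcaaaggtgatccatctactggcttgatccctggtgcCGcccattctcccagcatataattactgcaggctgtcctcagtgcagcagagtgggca
The printed stretch holds 20 CpG dinucleotides in Cyp51, 15 in Cyp20a1, 2 in Cyp2e1 and 2 in Cyp3a11. Cyp2e1 has TATAAA starting at position -31. In Cyp51, positions -89 to -81 read ATCACCTCA, which matches ATCACNNCA, a pattern written here to cover sterol response elements and searched on both strands. That pattern occurred in 1 of the 63 P450 windows and in 757 of the 27025 windows (2.80%), and a match does not show binding.

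**Figure D2:**
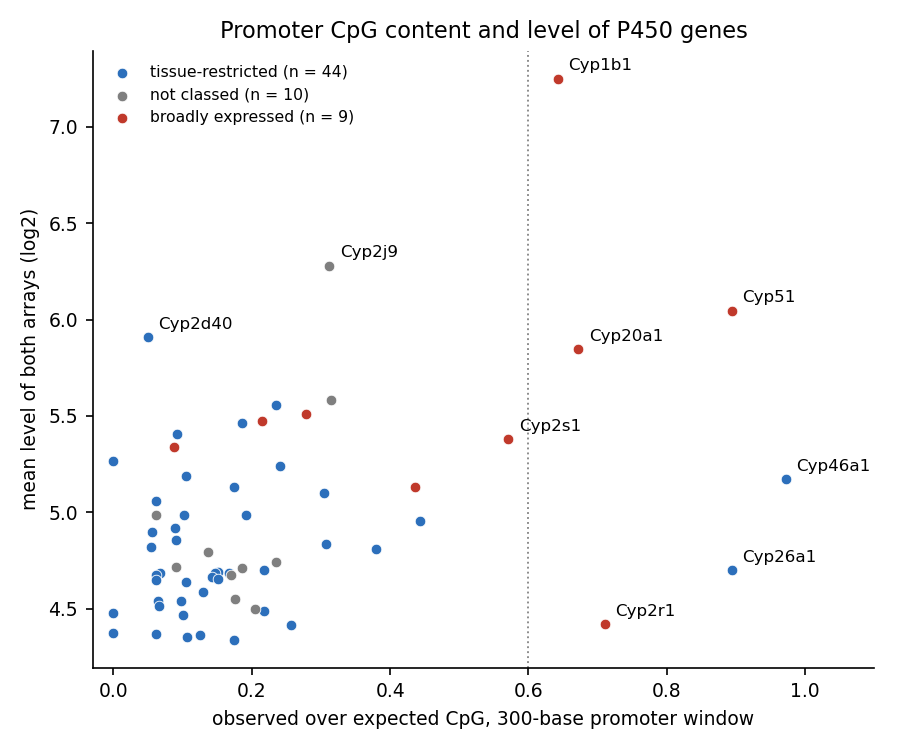
Observed over expected CpG ratio of the promoter window (x axis) against the mean log2 level of both arrays (y axis) for the 63 P450 genes with a RefSeq window; the dotted line marks 0.6. CpG-rich windows are found both in genes past the filter (Cyp1b1, Cyp51, Cyp20a1) and in genes below it (Cyp2r1, Cyp46a1, Cyp26a1).

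Genome order was examined in the same way. A gene was called clustered where another protein-coding P450 gene lay within 5 places of it in RefSeq gene order. Of 61 clustered genes 9 passed the filter (14.8%), and of 21 solitary genes 8 did (38.1%). The solitary genes past the filter were Cyp1b1, Cyp7b1, Cyp39a1, Cyp51, Cyp20a1, Cyp2u1, Cyp26b1 and Cyp2w1. Breadth and clustering overlapped: of the 21 solitary genes 8 were broadly expressed and 11 tissue-restricted, and of the 61 clustered genes 5 and 48. Within the tissue-restricted class, 1 of 11 solitary and 5 of 48 clustered genes passed, and within the broadly expressed class 6 of 8 and 3 of 5. Similarity between copies in a cluster was not examined, so paralogs may contribute to the values of clustered genes such as Cyp2d40, Cyp2c66, Cyp2j6 and Cyp4f13. A further 7 probe sets annotated to several genes covered 9 further P450 genes with no probe set of their own, which are not among the 82.

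By function, sterol synthesis was represented by Cyp51, the lanosterol demethylase that nearly all cells use to make cholesterol. Cyp51 had 6.29 in Tg against 5.81 in non-Tg, above the median on both arrays, a difference of 0.48 (1.39-fold). This lies within the middle 95% of all genes. Cyp20a1, a widely conserved P450 whose substrate is not settled, had the largest difference of the family, 6.34 in Tg against 5.36 in non-Tg, or 0.98 (1.98-fold). It exceeded the 97.5th percentile of all genes past the filter (0.72) and fell just short of 2-fold. Since it passed through the Tg array alone and is the widest of the family, its place beyond that percentile comes partly with selection. Because the array medians differ by 0.02, centring both arrays on their medians moved Cyp20a1 to 1.004, past the 2-fold limit. After centring, 98 of the 11422 genes past the filter were 2-fold higher in Tg. Quantile normalization left Cyp20a1 at 0.98.

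Of the 6 measured genes of bile acid synthesis and cholesterol breakdown, 2 passed the filter. Their differences pointed in opposite directions. Cyp39a1, an oxysterol hydroxylase, had 6.46 in Tg against 5.77 in non-Tg, a difference of 0.69 (1.61-fold) inside the middle 95% of all genes. Cyp7b1, the other oxysterol hydroxylase, had 6.64 and 7.03, a difference of -0.38, the lowest of the family. Cyp27a1, the mitochondrial sterol hydroxylase, read 5.13 on both arrays. Cyp46a1, which clears cholesterol from neurons, had 5.34 and 5.01, and Cyp8b1, the enzyme that makes cholic acid, 5.03 and 5.17, all without passing the filter.

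Targets of the aryl hydrocarbon receptor, the sensor of dioxin and of plant and tryptophan products, were split by gene. Cyp1b1, which also serves in stromal cells outside the liver, had 7.17 in Tg against 7.33 in non-Tg (difference -0.15), above the median on both arrays. Cyp1a1, the most inducible target, was under the floor in both genotypes, with 4.80 in Tg against 4.63 in non-Tg. Beside Cyp1b1, the fibroblast markers had mean levels of 6.21 in Tg against 6.13 in non-Tg and the endothelial markers 6.48 and 6.40, with 0 of 14 markers 2-fold apart. Their part in the Cyp1b1 level was not tested.

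Among Cyp2 genes used mainly outside the liver, 6 of 13 passed the filter. Cyp2j9, a P450 known from brain, had 6.18 in Tg against 6.39 in non-Tg, a difference of -0.21. Its neighbour Cyp2j6 had 5.54 and 5.41, passing through the Tg array alone, while Cyp2j11, Cyp2j12 and Cyp2j13 of the same cluster did not pass. Cyp2u1, a fatty acid hydroxylase first described in thymus and brain, had 5.74 and 5.50, a difference of 0.24. Cyp2s1, an epithelial P450, had 5.30 and 5.46.

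Cyp2g1, a P450 of the olfactory mucosa, had the widest difference of the tissue-restricted class. It read 5.56 in Tg against 4.91 in non-Tg, a difference of 0.65 (1.57-fold), inside the middle 95% of all genes. Only its Tg value reached the array median, which was 5.43 on the Tg array. With the floor raised to the 50th percentile of all values the difference was 0.11. Cyp2w1, known from fetal gut and colon tumours, had 5.42 and 5.51 (difference -0.09).

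Of the 29 hepatic and xenobiotic Cyp2 genes 2 passed the filter. Cyp2d40 had 6.02 in Tg against 5.80 in non-Tg, a difference of 0.22, above the median on both arrays. Cyp2c66, of the intestinal Cyp2c genes, had 5.46 and 5.35, passing through the Tg array alone. The Cyp3a genes had 0 of 6 past the filter, with Cyp3a25 at 4.85 in Tg against 4.50 in non-Tg and Cyp3a44 at 4.61 against 4.71. Of the 13 Cyp4 fatty acid hydroxylases only Cyp4f13 passed, through the Tg array alone. It had 5.67 in Tg against 5.35 in non-Tg, a difference of 0.33. Cyp4f16 had 5.25 and 5.42 and stayed below both medians.

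Of the 5 measured steroid hormone genes, 1 passed the filter. This was Cyp11b2, the aldosterone synthase, at 5.57 in Tg against 5.41 in non-Tg (difference 0.16), passing through the Tg array alone. Cyp11a1, which cuts the cholesterol side chain, had 4.77 and 4.91, Cyp11b1, the last step to corticosterone, 4.86 and 5.00, and Cyp21a1, the steroid 21-hydroxylase targeted in autoimmune adrenal failure, 4.82 and 4.80. Cyp17a1, which leads to androgens, was under the floor at 4.60 on both. No member of this pathway differed by more than 0.16 in either direction.

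The vitamin D genes Cyp2r1 and Cyp27b1, which activate the vitamin in consecutive steps, did not pass, with 4.38 in Tg against 4.46 in non-Tg for the first and 4.89 and 4.83 for the second. Of the retinoic acid hydroxylases, which remove this morphogen, Cyp26b1 had 5.64 in Tg against 5.52 in non-Tg and Cyp26c1 5.50 and 5.61. Cyp26a1 was under the floor at 4.71 and 4.69. The differences of Cyp26b1 and Cyp26c1, 0.12 and -0.12, were both smaller than the SD of 1 probe set.

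**Figure D3:**
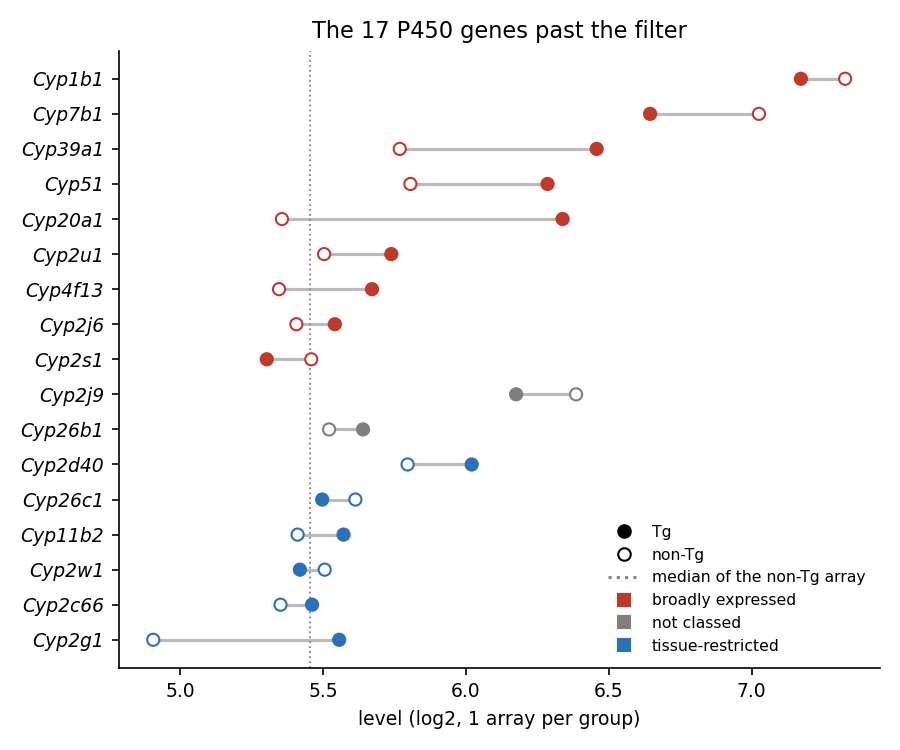
Log2 level in Tg (filled) and non-Tg (open) of the 17 P450 genes past the filter, 1 array per group, coloured by class, with the median of the non-Tg array dotted. The longest lines are those of Cyp20a1, Cyp39a1 and Cyp2g1, with Tg on the right, and Cyp7b1 runs the other way.

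The genes that work with P450 enzymes were read from whole lists. At the 1.17% of all genes, fewer than 1 gene of each list would be 2-fold apart, so a count of 0 says little. For each list's count past the filter, the share of all genes was 57.3%. Of the electron donors and haem genes 8 of 8 measured passed the filter, Por and Fdxr, the P450 and adrenodoxin reductases, not being analysed here, with 0 beyond 2-fold and a median difference of -0.12. Fdx1 (adrenodoxin), which feeds the mitochondrial P450 enzymes, had 8.53 in Tg against 8.80 in non-Tg. The haem-binding partner gene Pgrmc1 had 8.32 and 8.64, and Cyb5a (cytochrome b5) 7.34 and 7.94. Alas1, the first enzyme of haem synthesis, differed by -0.06. The Cyb5a difference of -0.60 (1.51-fold lower) was the widest in the list and lay within the middle 95% of all genes.

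Regulators of P450 genes passed the filter in 9 of 15 cases, with 0 beyond 2-fold and a median difference of 0.03. The 9 of 15 is 60%, near the 57.3% of all genes. Arnt, partner of the aryl hydrocarbon receptor, had 7.75 in Tg against 7.01 in non-Tg (0.74, 1.67-fold), the receptor's target and feedback gene Tiparp 7.83 and 7.06 (0.76, 1.70-fold), and the receptor gene Ahr itself 5.90 and 5.41 (0.49), passing the filter through the Tg array alone. Arnt and Tiparp exceeded the 97.5th percentile of all genes (0.72), while Cyp1b1 of the same pathway had a difference of -0.15. Cyp1a1 was under the floor at 4.80 in Tg against 4.63 in non-Tg, and the repressor gene Ahrr at 4.60 and 4.62. The floor sets the differences of both to 0, so these show no direction. Srebf2, the activator of sterol genes, had 7.32 and 7.11. The pregnane and androstane receptor genes Nr1i2 and Nr1i3, which switch on Cyp2b and Cyp3a genes in liver, did not pass, with 4.99 and 4.95 and with 4.96 and 4.93. Ppara, Nr1h3 and Nr1h4 did not pass either. Other regulators passed on both arrays, namely Hnf4a at 5.53 in Tg against 5.55 in non-Tg, Nr5a1 at 5.85 and 5.87, Rxra at 5.99 and 6.20, Vdr at 6.34 and 6.47 and Rara at 5.70 and 5.87.

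Cholesterol synthesis, in which Cyp51 takes part, had 14 of 16 measured genes above the filter (87.5%) and 0 beyond 2-fold. The median difference was 0.10, with 11 members above 0 and 5 below. Nsdhl, which acts shortly after Cyp51 in the removal of methyl groups from lanosterol, had the widest difference, 7.87 in Tg against 7.03 in non-Tg (0.84, 1.79-fold), beyond the 97.5th percentile of all genes. Sqle, the squalene epoxidase, had 9.07 and 8.57 (0.50), Hmgcs1, at the head of the pathway, 9.01 and 8.68 (0.33), Fdft1, the squalene synthase, 8.54 and 8.46, and the late enzyme gene Sc5d 8.36 and 8.09. Idi1, the isopentenyl isomerase, went the other way, at 6.73 and 7.20 (-0.46), as did Pmvk, the phosphomevalonate kinase, at 5.46 and 5.92.

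The retinoic acid list had 6 of 10 measured genes above the filter (60%), near the 57.3% of all genes. It had 0 beyond 2-fold, and differences between -0.17 and 0.19. Crabp2, a carrier of retinoic acid, was at 9.55 on both arrays, the retinol dehydrogenase gene Rdh10 at 8.61 in Tg against 8.54 in non-Tg, the reductase gene Dhrs3 at 8.07 and 8.02 and the synthesis gene Aldh1a3 at 6.50 and 6.31. Steroidogenesis partners had 0 of 6 past the filter, the highest being Hsd11b1 at 5.37 and 5.26 and Star, the cholesterol carrier of steroid cells, at 5.02 and 4.90. Of P450 genes named by their product, Ptgis, the prostacyclin synthase, had 5.65 and 5.76 and Tbxas1, the thromboxane synthase, 4.85 and 4.92.

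**Figure D4:**
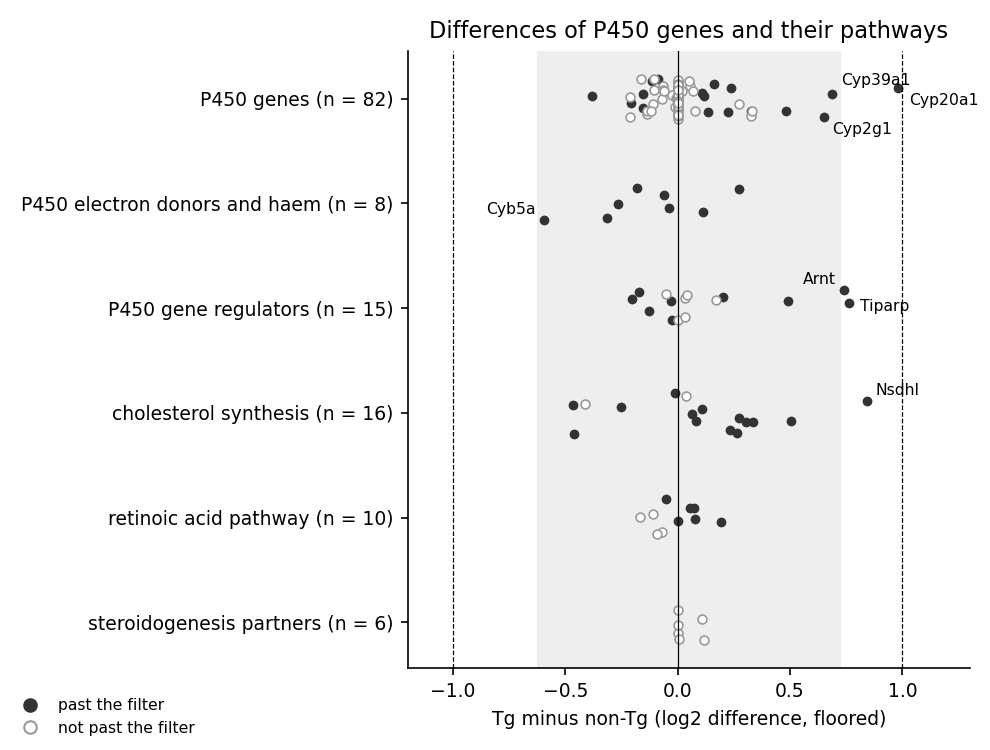
Tg minus non-Tg log2 difference (x axis, floored) of the 82 P450 genes and of 5 related lists; filled points passed the filter, dashed lines mark 2-fold and the grey band the middle 95% of all genes past the filter. Points outside the band are Cyp20a1, Arnt, Tiparp and Nsdhl, all on the Tg side, and no point passes a dashed line.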

How the data were processed

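Per the labels' protocols, cDNA was amplified from 400 pg of total RNA by the Ovation One-Direct kit, of which 5.5 µg was labelled with biotin. The authors deposited log2 values of 28856 probe sets, 1 for each array. The log2 scale was inferred from the range, 4.22 to 13.7; the sources used here do not name the background correction, normalization or genome build. Values were used as deposited. Platform annotation gave 21789 probe sets 1 symbol, 1621 several and 5446 none; the brightest probe set per gene was taken. All 82 P450 gene IDs matched RefSeq (GRCm38.p6), where Cyp2d13 is a pseudogene. No coordinates from the gene table were used.

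Differences were called at 2-fold after the filter, with no test. Named genes were all P450 genes past the filter, any with a difference of at least 1, the 2 brightest of each role, the 4 brightest of each pathway list and any 2-fold apart, with Aire and Psmb11; others named as examples were chosen after their values were seen. Members, classes and lists were chosen with earlier results of these data known. The calling procedure was checked on simulated data with known fold changes. These were planted only in genes brighter than most P450 genes, so the check does not cover levels near the floor. Python 3.11.15, numpy 2.4.6, pandas 2.3.3 and matplotlib 3.10.9 were used. The table held 0 columns of other samples, and scan dates were not used here, so batch and genotype cannot be told apart.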

Additional observations from a re-analysis of the deposited data

How the results depend on the processing

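No paired analysis was possible because each genotype has 1 array. Of 420 recomputed values, over 42 results and 10 alternatives, 324 equalled the reported value exactly, mostly because the alternative could not move them, as a filter cannot move 1 gene's difference. Of the other 96, 86 kept their side of the threshold and moved by less than the SD of 1 probe set (or, for counts, by no more than 1.5 times), a lenient limit for medians. With the floor at the 50th percentile the medians of the broadly and the tissue-restricted class were both 0, the latter being fixed at 0 by the main floor already. With the filter at the 75th percentile 2 P450 genes passed (Cyp1b1 and Cyp7b1), with a median difference of -0.27, and with no filter 82 did. Centring the arrays on their medians gave 1 P450 gene 2-fold higher, Cyp20a1 at 1.004, and 98 of all 11422 genes past the filter. The floor at the 50th percentile moved Cyp2g1 to 0.11. The call at 1.5-fold, added after seeing the data, gave 3 P450 genes higher and 0 lower. Of all genes past the filter, 4.74% were higher and 3.13% lower by that call. It also gave 1 electron donor or haem gene lower in Tg (Cyb5a). Higher in Tg were 2 regulators (Arnt and Tiparp) and 1 cholesterol synthesis gene (Nsdhl). Averaging probe sets changed no P450 value, since each gene has 1. Values near background and the number of arrays limit the precision.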

Other observations

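Several P450 readings lay outside the rule. The probe set shared by Cyp2a4 and Cyp2a5, steroid and coumarin hydroxylases of liver and olfactory mucosa, had 5.72 in Tg against 5.24 in non-Tg, a difference of 0.48. Only its Tg value reached the array median, 5.43 on the Tg and 5.45 on the non-Tg array. The probe set shared by Cyp4v3 and the prekallikrein gene Klkb1 had 5.07 and 4.93. The other 5 shared probe sets, of Cyp2c, Cyp3a and Cyp4a genes, were all below the floor in both genotypes. The pseudogenes Cyp2d37-ps and Cyp4f41-ps passed the filter, at 5.38 in Tg against 5.54 in non-Tg and at 5.42 and 5.46, close to the array medians. Cyp2ab1, Cyp4a12a and Cyp4a12b, whose symbols have a further letter, were under the floor on both arrays.

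Cyp27a1, Cyp2b9 and Cyp4a31 had the same value on both arrays to every deposited digit. This occurred in 809 of the 28856 probe sets (2.80%), and its source was not tested.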
